A study of Mus musculus with 16 samples.

Results

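The transcripts described here are those of 5 genes of red blood cells, the alpha globins *Hba-a1* and *Hba-a2*, the adult beta globins *Hbb-bs* and *Hbb-bt*, and *Alas2*, in Drop-seq libraries of the mouse hypothalamus with the preoptic area. Drop-seq captures the polyadenylated RNA of single cells in droplets and counts each molecule once by a unique molecular identifier (UMI). The 5 genes, of 28683 in the deposited tables, were taken by symbol from all 16 libraries. The globin genes were chosen by their log2 fold change between tamoxifen and oil in wild-type mural cells, the muscle cells and pericytes that wrap blood vessels, so that contrast is given as values without a test in every population. Tests were made only of other contrasts.

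The 16 libraries came from single female mice of a mixed CD-1;129P2 background. The mice were 8 to 10 weeks old and received 28 daily subcutaneous injections of tamoxifen at 0.1 mg/kg, or of the corn oil vehicle, with tissue taken 2 h after the last injection. The groups held 3 wild-type oil, 5 wild-type tamoxifen, 4 Esr1cKO oil and 4 Esr1cKO tamoxifen libraries. Esr1cKO mice carried 2 floxed alleles of the estrogen receptor gene *Esr1* and the Nkx2-1Cre transgene, which is active in the medial hypothalamus and not in all brain cells, and wild-type mice were littermates without Cre. The tissue was dissociated with papain and passed over a density gradient, and the single-cell procedure in the methods names no perfusion of the vessels.

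Hemoglobin consists of alpha and beta globin chains, each of which binds heme. Globin transcripts accumulate in erythroblasts in the bone marrow and remain in young circulating red cells after the nucleus is lost. *Alas2* encodes the erythroid 5-aminolevulinate synthase, which starts heme synthesis in red cell precursors, whereas the related *Alas1* does so in most other cells. In brain samples, globin RNA can reach a droplet inside a red cell, as free RNA in the cell suspension, or within another cell, and low globin expression has been described for some neurons and glia.

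The adult alpha genes lie close together on chromosome 11 and the beta genes on chromosome 7, so that copies of one kind are nearly alike. On GRCm38 the GENCODE vM21 models are *Hba-a1* at chr11:32283511-32284465 and *Hba-a2* at chr11:32296489-32297298 on the plus strand, with 3 exons each. *Hbb-bs* at chr7:103826534-103828096 and *Hbb-bt* at chr7:103812524-103813996 lie on the minus strand with 3 exons each, and *Alas2* at chrX:150547375-150570638 has 11 exons on the plus strand. The coding sequences of the alpha genes, 426 bases long, differed at 1 base (C381T from *Hba-a1* to *Hba-a2*), and those of the beta genes, 441 bases long, also at 1 base (C417T from *Hbb-bs* to *Hbb-bt*), with positions counted from 1 at the A of the start codon. After the coding sequence the transcripts differed more, with 82.8% identity over 93 aligned positions for the alpha genes and 70.1% over 137 for the beta genes. The stretches around the coding differences are shown with the differing base in capitals.

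Hba-a1 coding bases 361 to 401: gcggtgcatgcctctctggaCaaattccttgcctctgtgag
Hba-a2 coding bases 361 to 401: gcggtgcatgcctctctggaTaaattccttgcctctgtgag
Hbb-bs coding bases 397 to 437: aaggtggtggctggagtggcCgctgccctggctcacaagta
Hbb-bt coding bases 397 to 437: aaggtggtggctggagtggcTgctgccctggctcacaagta

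Of the 50-base windows of the *Hba-a1* transcript 67.5% were found unchanged in *Hba-a2*, and 86.9% the other way. For the beta genes the values were 65.8% of *Hbb-bs* windows and 58.3% of *Hbb-bt* windows. How reads that matched both copies were counted is not given in the sources used here, so levels of single copies are uncertain, and the copies are not independent readouts. The reference carries the *Hbb-bs* and *Hbb-bt* haplotype of C57BL/6 mice, and the beta globin haplotype of the study's mice is not stated.

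The sequences before the RefSeq starts are shown because the globin genes moved together across libraries. Each is the stretch of 120 bases before the RefSeq start (RefSeq, GRCm38.p6), read 5′ to 3′ along the gene, with motif matches on either strand in capitals. The motifs were GATAA, which GATA factors of blood cells recognise, CCACCC, which Krüppel-like factors recognise, the letters CCAAT of the box of that name, and the letters TATAA of the TATA element. The GENCODE models above begin upstream of the RefSeq starts, so that the *Hbb-bs* window lies within its model and those of *Hba-a2*, *Hbb-bt* and *Alas2* overlap theirs in part. *Hba-a1* was the same as *Hba-a2* over the 117 bases that align.

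Hba-a2, chr11:32296372-32296491, plus strand: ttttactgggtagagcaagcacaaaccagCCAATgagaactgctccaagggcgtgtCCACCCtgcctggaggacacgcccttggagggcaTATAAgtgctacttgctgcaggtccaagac
Hbb-bs, chr7:103827929-103828048, minus strand: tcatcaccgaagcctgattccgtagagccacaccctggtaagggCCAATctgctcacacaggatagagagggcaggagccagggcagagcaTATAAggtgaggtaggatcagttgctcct
Hbb-bt, chr7:103813924-103814043, minus strand: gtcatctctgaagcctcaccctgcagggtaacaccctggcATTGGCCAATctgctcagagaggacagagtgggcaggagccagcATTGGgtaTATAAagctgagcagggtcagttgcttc
Alas2, chrX:150547297-150547416, plus strand: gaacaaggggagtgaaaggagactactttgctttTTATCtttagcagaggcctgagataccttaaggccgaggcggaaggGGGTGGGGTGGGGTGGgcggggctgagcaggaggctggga

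All 4 globin genes held CCAAT and TATAA matches, with TATAA 27 to 30 bases before the RefSeq start, as also *Hba-a1*. *Alas2* held a GATAA match 86 bases before it and 3 overlapping CCACCC matches. Windows of the same length before 32851 gene starts held CCAAT in 21.3%, CCACCC in 16.5%, TATAA in 11.8% and GATAA in 10.5%. These letters are a description of the windows and say nothing of what binds there.

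The libraries held 146538 barcodes, of which 55675 were kept as cells (between 200 and 4000 genes, mitochondrial UMIs below 15%), 1746 to 5568 per library. The median of kept cells was 563 to 819 UMIs per library. In 14 libraries barcodes were listed from 20 genes upwards, but in wild-type oil replicate 3 and Esr1cKO tamoxifen replicate 3 only from 100 genes, so the range that held most red cell barcodes of the other libraries lies outside their tables. Of the barcodes, 2832 occurred in more than 1 library, 520 of them among kept cells. Cells were clustered without the globin genes, and the 9 clusters were named from markers, 9 or 10 of 10 of which were found in each. The fibroblast cluster also led with *Bpifa1* and *Tshb*, which are not fibroblast genes.

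The files held 442021 UMIs of *Hbb-bs*, 277963 of *Hba-a2*, 239868 of *Hba-a1*, 85888 of *Hbb-bt* and 419 of *Alas2*. The 4 globins took 0.120% to 6.15% of a library's UMIs, with a median of 0.980%. Most of these UMIs were in barcodes that the cell filter removed. Barcodes with at least 50% of their UMIs from the 4 globins, called red cell barcodes here, numbered 1704. They had a median of 463 UMIs and 54 genes, and a median of 83.5% of their UMIs came from globins. The border was thinly filled, with 45 barcodes from 45% to 50% and 56 from 50% to 55%, against 879 from 80% to 90%.

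Red cell barcodes below the cell filter held 8.51% to 89.8% of the globin UMIs of a library (median 74.0%), and kept cells held 8.001% to 78.0% (median 22.8%). The 2 libraries listed from 100 genes gave the lowest red cell shares. Among barcodes with at least 100 genes, which all libraries list, there were 293 red cell barcodes, 0.622 to 12.3 per 1000 barcodes. The highest value was that of Esr1cKO tamoxifen replicate 2, which also had the highest globin share of its UMIs. Of the red cell barcodes 70 passed the cell filter.

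**Figure D1:**
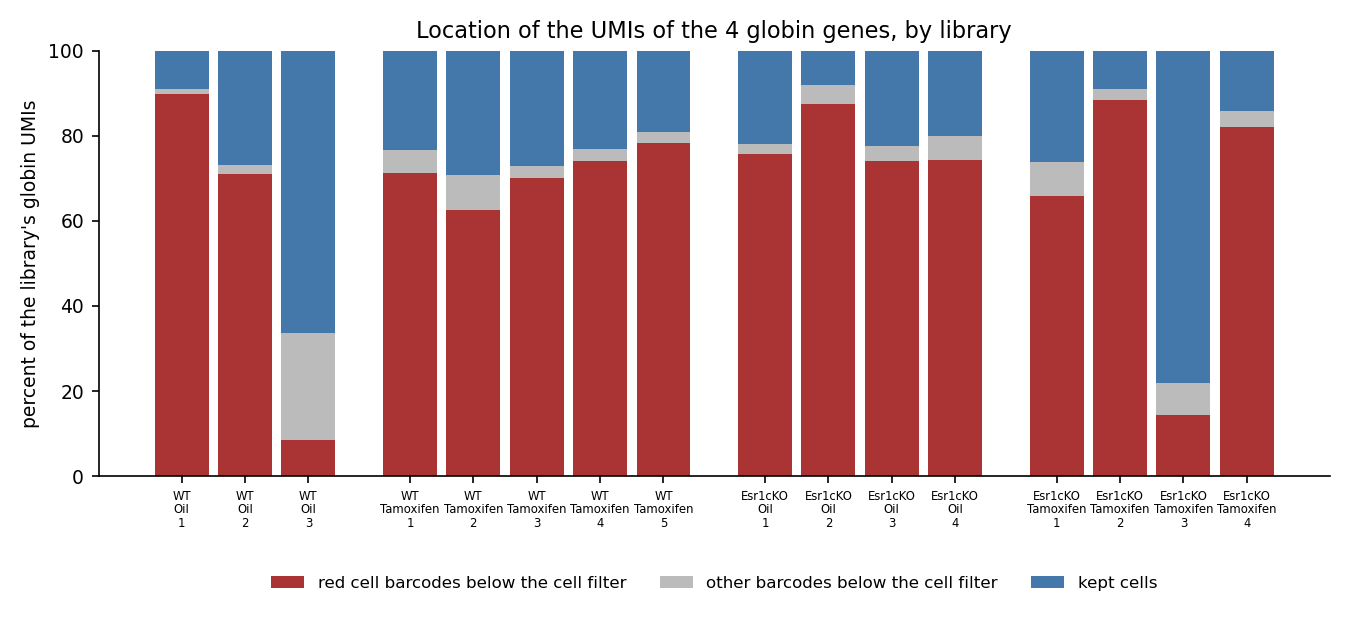
Percent of the UMIs of the 4 globin genes (y axis, linear from 0 to 100) that lay in red cell barcodes below the cell filter, in other barcodes below it and in kept cells, with 1 stacked bar per library. Red cell barcodes held the largest part in all libraries but wild-type oil replicate 3 and Esr1cKO tamoxifen replicate 3, whose tables begin at 100 genes.

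*Alas2* marked the same barcodes. Of its 419 UMIs 324 (77.3%) were in red cell barcodes, of which 16.02% had at least 1, and 89 were in kept cells. The kept *Alas2* UMIs comprised 61 in endothelial cells, 15 in astrocytes, 12 in neurons and 1 in polydendrocytes. Oligodendrocytes, microglia, ependymal cells, mural cells and fibroblasts had 0, which allows up to 0.346, 0.760, 0.592, 2.05 and 2.19 UMIs per 1000000 UMIs (CPM), respectively, by counting error alone. Red cell barcodes below the filter had 38.8 *Alas2* UMIs per 100000 globin UMIs (exact Poisson 95% interval 34.6 to 43.5). At that ratio the 229713 globin UMIs of kept cells would go with 89.2 *Alas2* UMIs, where 89 were counted. By type the counts lay on both sides of that ratio, with 61 counted against 66.0 in endothelial cells, 15 against 10.9 in astrocytes, 12 against 4.68 in neurons, 0 against 2.76 in oligodendrocytes and 0 against 1.10 in mural cells.

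The genes that stood highest in red cell barcodes against other barcodes of 100 to 200 genes, called low-gene barcodes below, were led by *Hbb-y*, an embryonic beta globin, with 353 against 0.667 CPM (362 and 4 UMIs). *Isg20*, an RNA exonuclease gene, was at 175 against 1.4998 and *Wdr45*, an autophagy gene, at 1011 against 14.3. *Dsg4*, *Cdkn2a*, *H2-M10.6*, *Il20ra*, *Pi15*, *4930510E17Rik* and *Stil* completed the 10 highest, with 62.3-fold to 206-fold differences (1 CPM added to both). With a median of 83.5% of these barcodes' UMIs from the 4 globins, genes at such levels rest on 180 to 1037 UMIs in all. Of the lists of related genes, the other globins had 5 members with 20 or more UMIs in red cell barcodes and all 5 were at least 2-fold higher there, as were 3 of 3 heme synthesis and iron import genes (*Fech*, *Slc25a37*, *Slc25a39*) and 10 of 16 red cell genes. Over all 1224 genes with 20 or more UMIs there, the 5 genes left out, 11.3% were at least 2-fold higher. Of the genes of other blood cells 1 had 20 UMIs and was not higher. No test was made of these differences, since globin levels define the red cell barcodes.

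Among kept cells the globins were highest in endothelial cells, which line the vessels. The *Hbb-bs* level of endothelial cells was 4184, 10822 and 2318 CPM in the wild-type oil libraries, 10128, 13359, 8865, 9021 and 9854 with tamoxifen, 12378, 1875, 5409 and 7324 in Esr1cKO oil and 13813, 10814, 15109 and 5641 in Esr1cKO tamoxifen. The lowest library thus had 1875 CPM, and the 4 groups overlapped. The other globins followed, at medians over 16 libraries of 5952 for *Hba-a2*, 5084 for *Hba-a1* and 1877 for *Hbb-bt*, against 9438 for *Hbb-bs*. *Alas2* reached 17.0 CPM at most and was at 0 in 2 libraries.

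Next in the order of median *Hbb-bs* level were astrocytes with 469 CPM, neurons with 213, oligodendrocytes with 208, mural cells with 141, microglia with 131, fibroblasts with 101, polydendrocytes with 90.7 and ependymal cells with 85.1. Astrocytes ran from 55.8 to 5251 over libraries and mural cells from 0 to 10114. In exact two-sided sign-flip tests over the 16 libraries, endothelial cells exceeded astrocytes by 3.78 on the log2 scale (SD 2.3, higher in 15 of 16, adjusted p = 0.000488 over the 32 neighbouring pairs of the 4 globins), and no other neighbours in the order of *Hbb-bs* differed beyond their spread. The same held for *Hba-a1*, *Hba-a2* and *Hbb-bt*.

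**Figure D2:**
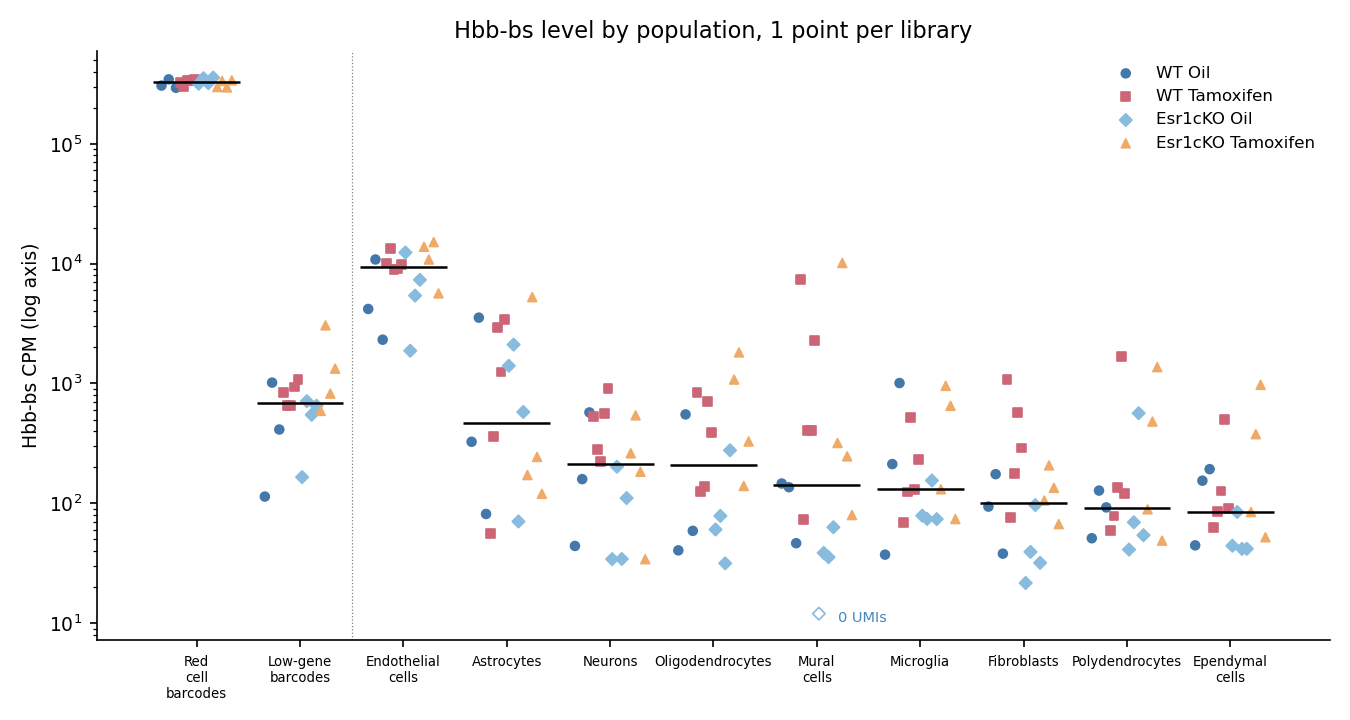
*Hbb-bs* level in CPM (y axis, log) in red cell barcodes, low-gene barcodes and the 9 cell types, with 1 point per library coloured by group and a line at the median of the 16 libraries. Endothelial cells lie above all other cell types in the median (9438), and the open symbol marks the mural cells of Esr1cKO oil replicate 1, which had 0 UMIs.

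With the counts summed per library and type and the library as a block, edgeR's quasi-likelihood test placed the globins higher in endothelial cells than in all other kept cells by 4.67 for *Hbb-bs* (log2 fold change, SE 0.29, adjusted p = 1.4e-15), which is 25.5-fold. *Hba-a1* differed by 4.58, *Hba-a2* by 4.60 and *Hbb-bt* by 4.56 (SE 0.27 to 0.28). In this comparison 76.4% of the 12445 genes differed in endothelial cells, 36.2% of them upwards and 40.2% downwards as shares of all genes tested, so passing the test is common. In the other 8 types, *Hbb-bs* was lower than in the rest of the kept cells, which include the endothelial cells, with log2 fold changes of -3.40 in ependymal cells, -3.31 in neurons, -3.15 in fibroblasts, -3.09 in polydendrocytes, -2.54 in microglia, -2.24 in oligodendrocytes, -2.11 in mural cells and -0.98 in astrocytes. Of the 36 pairs of globin and type 35 passed, *Hbb-bt* in astrocytes being the exception, where 68.3% of all pairs of gene and type passed (44.8% to 81.7% by type). With edgeR's robust prior, a setting added after seeing the data, 32 passed and those of astrocytes did not (*Hbb-bs* adjusted p = 0.125), while *Hbb-bs* in mural cells had adjusted p = 0.00523 and in endothelial cells 1.3e-08.

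*Alas2* had too few UMIs for the filter on low counts in every type. Fitted without that filter, it was higher in endothelial cells by 3.68 on the log2 scale (adjusted p = 1.2e-12, edgeR), from 61 UMIs. Among the other heme synthesis and iron import genes, 5 of 14 tested were higher in endothelial cells and 2 lower. *Alas1*, the synthase of non-erythroid cells, was higher by 2.72, *Alad*, which makes porphobilinogen, by 1.06 and *Tmem14c*, a mitochondrial porphyrin carrier, by 0.82, whereas *Cpox* fell by 1.90 and *Uros* fell by 0.99. Of 18 red cell genes tested 6 were higher and 9 lower. *Tal1*, a transcription factor of blood and endothelial cells, was higher by 3.50, the transferrin receptor gene *Tfrc* by 3.26 and the interferon-induced gene *Rsad2* by 3.24, and *Ypel4* and the carbonic anhydrase gene *Car2* were lower, with log2 fold changes of -4.47 and -2.93. The medians of the lists were 0.15 for the heme genes and -0.15 for the red cell genes, beside -0.05 for all genes tested. The neuronal globin *Ngb* and cytoglobin (*Cygb*) were lower in endothelial cells (-2.88 and -1.13). Of 2 genes of other blood cells tested, *Ly6c2*, whose sequence is close to that of the endothelial gene *Ly6c1*, was higher by 7.97 and *Pf4*, a platelet and macrophage gene, was lower (-1.04).

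The endothelial level rested on few cells. Cells with at least 5% of their UMIs from the 4 globins, called globin-rich here, numbered 435 of 55675 kept cells (0.781%) and held 92.4% of the globin UMIs of kept cells. Of these, 348 were endothelial, 4.87% of that type, and they held 96.5% of its globin UMIs. Globin-rich endothelial cells were found in every library, 4 to 45 each, as 1.42% to 7.52% of its endothelial cells. In contrast, 5476 of 7149 endothelial cells had no globin UMI. The border of 5% did not fall in a gap, with 17 endothelial cells from 4% to 5% and 15 from 5% to 6%, and the highest share was 76.1%.

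The other types held 87 globin-rich cells, 33 of them astrocytes, 15 neurons, 13 oligodendrocytes, 8 microglia, 7 mural cells, 5 polydendrocytes, 4 ependymal cells and 2 fibroblasts. In each of these types they made up 0.112% to 0.297% of the cells and held 52.3% to 90.3% of the globin UMIs. Of the astrocyte globin UMIs 72.9% lay in 17 kept red cell barcodes alone, against 24.4% in 43 such barcodes among endothelial cells.

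**Figure D3:**
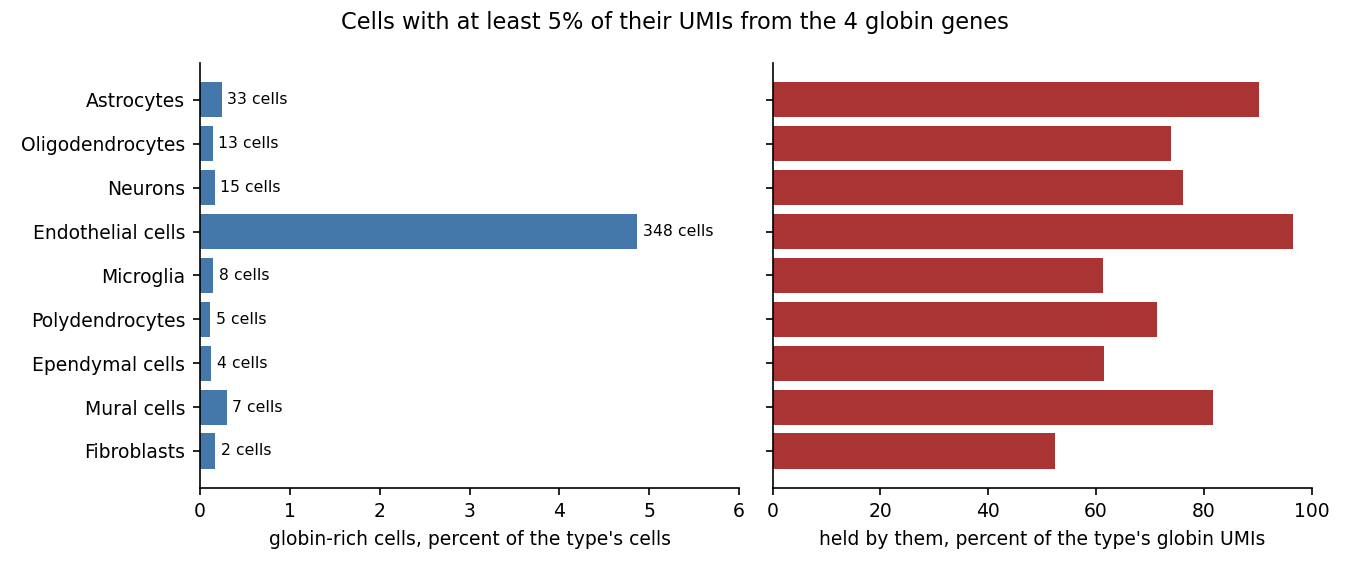
Globin-rich kept cells by type as a percent of the type's cells (left, linear axis, with their number) and the percent of the type's globin UMIs that they held (right, linear axis). Endothelial cells stand apart with 348 cells, 4.87% of the type, while in every type the globin-rich cells held 52.3% or more of the globin UMIs.

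Globin-rich endothelial cells had a median of 302.5 globin UMIs and 918 other UMIs, where other endothelial cells had 709 of the latter. Their endothelial markers were level with those of other endothelial cells, at 21.2 and 21.0 per 1000 UMIs that are not globin. *Ly6c1*, an endothelial surface antigen, was found in 91.1% and 86.0% of them, respectively, and *Flt1*, a receptor of vascular endothelial growth factor, in 92.0% and 90.5%. The pericyte genes *Rgs5* and *Vtn* were also found in both, *Rgs5* in 65.2% and 56.7% and *Vtn* in 28.2% and 22.7%. These shares were not adjusted for the higher UMI number of globin-rich cells. The mural cluster led with the muscle genes *Acta2*, *Myh11* and *Tpm2*. Whether the endothelial cluster held pericytes was not tested. Doublets were not called by a tool, and the part of droplets with 2 cells in these values was not tested.

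Per 100000 globin UMIs, globin-rich endothelial cells had 34.7 *Alas2* UMIs (26.3 to 45.001), with an interval that overlapped that of red cell barcodes below the filter, 38.8. *Hbb-y* was at 40.8 and 43.2, *Bpgm*, which makes the red cell metabolite 2,3-bisphosphoglycerate, at 56.7 and 52.0, and *Isg20* at 25.0 and 21.8. *Mkrn1*, a ubiquitin ligase gene, was at 61.0 (49.6 to 74.1) in globin-rich endothelial cells and 38.7 in red cell barcodes. Kept cells below 5% globin had 91.9 *Alas2* UMIs per 100000 globin UMIs, from 16 UMIs.

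**Figure D4:**
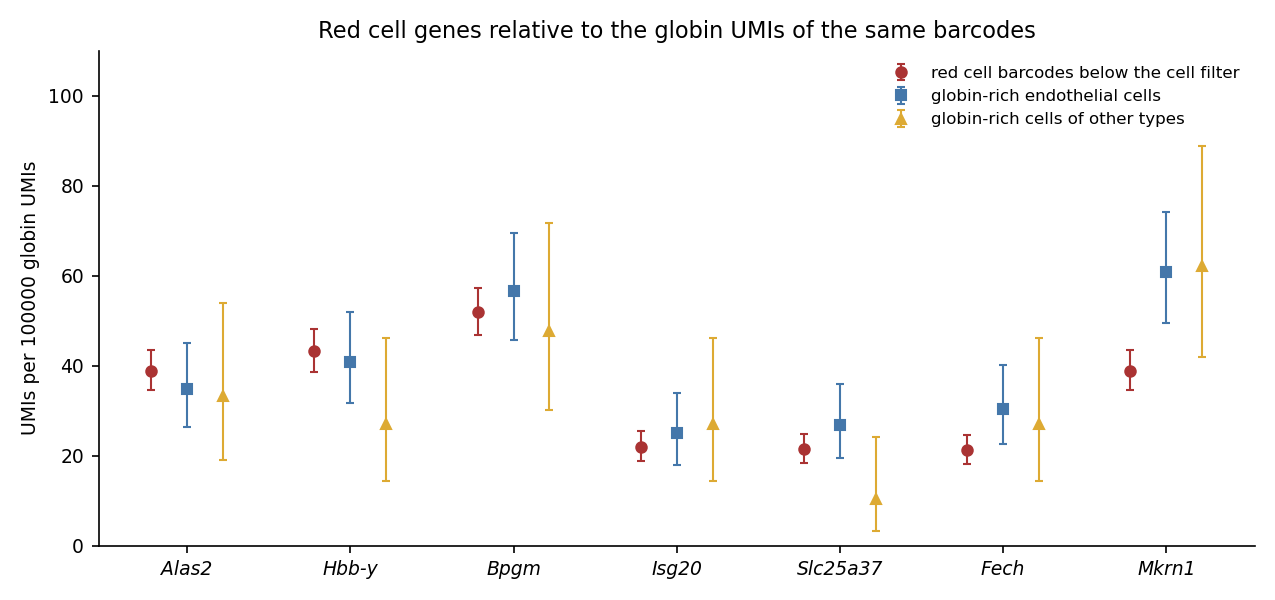
UMIs of 7 genes per 100000 globin UMIs of the same barcodes (y axis, linear) in red cell barcodes below the cell filter, globin-rich endothelial cells and globin-rich cells of other types, with exact Poisson 95% intervals as bars that cover counting error only. The first 2 populations overlap in *Alas2*, *Hbb-y*, *Bpgm*, *Isg20*, *Slc25a37* and *Fech* and differ in *Mkrn1*.

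The alpha share of the globin UMIs had a narrower range over libraries in endothelial cells than in the other types, which held fewer globin UMIs. Alpha globins made up a median of 48.9% of the globin UMIs in endothelial cells, from 45.5% to 53.9% over libraries. In microglia the range was 27.6% to 74.2%. Endothelial cells held 1422 to 27079 globin UMIs per library and microglia 12 to 807, so counting error differs between these ranges. All kept cells ran from 45.6% to 52.7% and red cell barcodes from 45.1% to 51.6%. The *Hbb-bt* part of the beta globin UMIs ran from 10.8% to 43.6% in neurons, with 72 to 2571 globin UMIs per library, and from 12.2% to 20.2% in endothelial cells. The *Hbb-bt* part of the beta globin UMIs was lower in kept cells than in red cell barcodes of the same library in 16 of 16 libraries, by a median of 2.15 percentage points, and in low-gene barcodes it was lower by a median of 4.87, with 1 of 16 libraries higher. Across the 16 libraries the *Hbb-bs* level in all kept cells had Spearman's rho of 0.985 with *Hba-a2*, 0.968 with *Hba-a1* and *Hbb-bt*, and 0.544 with *Alas2*. The genes next most like it, of 13730, were *Plscr2* (0.826), *Abracl*, *Ptp4a3*, *Zic5*, *Alas1* (0.765), *Procr* and *Trdmt1*. Each point sums all kept cells of a library, so that its share of endothelial cells enters these values, to a different extent for each gene. The part of that share was not tested, and the values are a description over 16 libraries.

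Low-gene barcodes, which lack the red cell barcodes, were taken as a comparison level outside kept cells. Their *Hbb-bs* level was 113.8 to 3053 CPM with a median of 685, above the medians of all types but endothelial cells. In barcodes of 20 to 99 genes, listed in 14 libraries, the median was 1493, so the comparison level depends on the barcodes taken. In exact sign-flip tests over 16 libraries, endothelial cells were higher than the low-gene barcodes by 3.52 on the log2 scale (SD 1.2, 16 of 16 libraries, adjusted p = 0.000275, where the unadjusted p of 3.1e-05 is the smallest that 16 libraries allow). Astrocytes did not differ from them beyond their spread (-0.26, SD 2.2, higher in 8 of 16, adjusted p = 0.690). Red cell barcodes are left out of the low-gene barcodes but not out of the types, and 17 of them held 72.9% of the astrocyte globin UMIs. The other 7 types were lower, ependymal cells most (-2.56, higher in 1 of 16, adjusted p = 0.000300) and mural cells least (-1.45, higher in 4 of 16, adjusted p = 0.0253). Of 36 pairs of globin and type 30 passed, each against the low-gene barcodes of the same library.

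Where globin-rich cells were left out, all 9 types were below the low-gene barcodes. The endothelial difference in *Hbb-bs* turned to -1.39, and that of astrocytes fell to -2.30 (higher in 0 of 16). Leaving cells out by their own globin content lowers the level by construction. Low-gene barcodes were not trimmed at 5% and lack only the red cell barcodes. Endothelial cells then had a median *Hbb-bs* level of 229.9 CPM over libraries and astrocytes 135.8, values that depend on the border. At 2% globin in place of 5%, 400 endothelial cells in place of 348 would be counted as globin-rich, with 98.2% in place of 96.5% of the globin UMIs of the type.

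The share of cells with at least 1 UMI of any globin was 23.4% in endothelial cells (95% interval by the exact Clopper-Pearson method from 22.4% to 24.4%) at a median of 729 UMIs, and 21.7% in neurons (20.9% to 22.6%) at 1490. In astrocytes it was 14.4% at a median of 483 UMIs. With cells thinned to 500 UMIs, which left out 2212 of 7149 endothelial cells, 1818 of 9142 neurons and 7200 of 13590 astrocytes as shallower, endothelial cells had 18.2% and neurons 7.67%, below the 13.005% of astrocytes. At the same depth the range over the other 6 types was 9.45% to 11.4%. Intervals cover counting error only, and these shares include free RNA.

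Across the 16 libraries, the *Hbb-bs* level of oligodendrocytes rose with that of the low-gene barcodes (Pearson's r = 0.718, adjusted permutation p = 0.0058, Spearman's rho = 0.721, adjusted p = 0.0202, 10 relations). Without the 2 libraries farthest from the median low-gene level, wild-type oil replicate 1 and Esr1cKO tamoxifen replicate 2, r was 0.565 (adjusted p = 0.264), so the relation rests on these libraries. In endothelial cells r was 0.240 (adjusted p = 0.367) and rho 0.200, in mural cells 0.515 (adjusted p = 0.144) and 0.579.

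Mural cells, from whose wild-type contrast the globins were noted, numbered 297 in the wild-type oil and 1054 in the wild-type tamoxifen libraries. *Hbb-bs* was at 146, 136 and 46.5 CPM with oil, from 2, 12 and 5 UMIs, and at 7394, 73.7, 403, 406 and 2296 with tamoxifen, from 235, 4, 91, 86 and 254 UMIs. Replicate 2 of the tamoxifen group lay within the oil range and the other 4 above it. The log2 fold change was 4.43 (SE 1.52), given as a description, and the other globins gave 4.79 (*Hba-a2*), 4.05 (*Hba-a1*) and 3.23 (*Hbb-bt*). *Alas2* had no UMI in any of the 2355 mural cells of the series.

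In mural cells the highest values came largely from single cells. Globin-rich were 5 of 1054 mural cells in the wild-type tamoxifen libraries (4 of 5 libraries) and 2 of 599 in the Esr1cKO tamoxifen libraries (both in replicate 2). In the oil libraries 0 of 297 wild-type and 0 of 405 Esr1cKO mural cells were, which allows shares of up to 1.01% and 0.741% by counting error alone. The wild-type values belong to the contrast that chose the genes, cells of 1 mouse are not replicates, and no test was made of these counts. The 7 cells had a median of 841 UMIs, of which a median of 48.1% came from globins, and 3 of them were red cell barcodes. Every one had mural marker UMIs, at 21.8 per 1000 UMIs that are not globin, where other mural cells had 31.8. Endothelial markers were at 2.21 per 1000 in the 7 cells and 0.415 in other mural cells. Such markers were found in 42.9% and 16.1% of them, respectively. The 7 globin-rich cells held 81.7% of the mural globin UMIs. Without them the tamoxifen values of *Hbb-bs* in wild-type libraries were 64.8, 73.7, 279, 133 and 219 CPM, and the log2 fold change was 0.95 (SE 0.59, description). The tamoxifen median was then 133 CPM, beside 136 with oil. The tamoxifen range overlapped the oil range of 46.5 to 146 CPM. Each of the 4 wild-type libraries with globin-rich mural cells thus owed the difference between its 2 values to 1 or 2 cells. Wild-type tamoxifen replicate 2 had none, and its value stayed at 73.7.

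**Figure D5:**
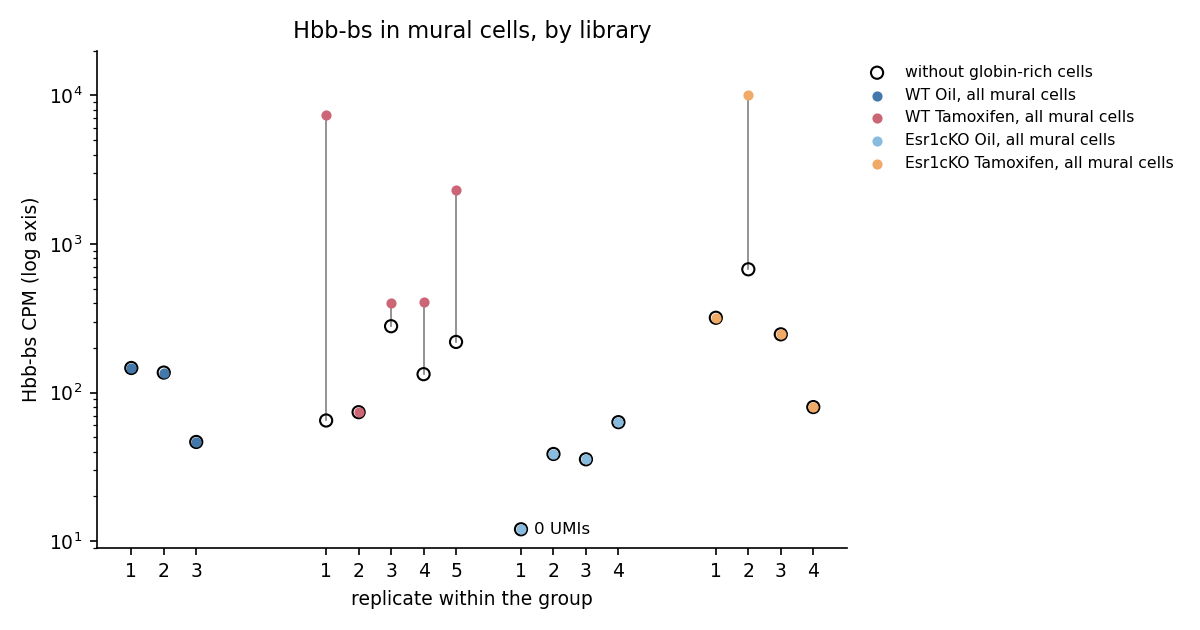
*Hbb-bs* level in CPM in mural cells (y axis, log) for each library, by group, with all mural cells (filled) and without globin-rich cells (open circles). A line joins the values that differ, wild-type tamoxifen replicates 1, 3, 4 and 5 and Esr1cKO tamoxifen replicate 2, and the mural cells of Esr1cKO oil replicate 1 had 0 UMIs.

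In Esr1cKO mice, whose tamoxifen contrast did not choose the genes, *Hbb-bs* in mural cells was at 0, 38.6, 35.5 and 63.2 CPM with oil, from 0, 2, 4 and 5 UMIs, and at 319, 10114, 246 and 79.8 with tamoxifen, from 14, 395, 32 and 12 UMIs. All 4 tamoxifen libraries lay above the 4 oil libraries. The log2 fold change was 5.88 (SE 1.52, unadjusted p = 0.000709, adjusted p = 0.945, edgeR) and did not pass the test across the 2417 genes, of which 2.65% had an unadjusted p under 0.05. The low-count filter weighed the libraries of all 4 groups together. Too few oil libraries reached its level, so *Hbb-bs* entered this fit through tamoxifen libraries, wild-type ones included. The p-value is therefore not free of the choice of the genes. Without Esr1cKO tamoxifen replicate 2, whose mural cells included 2 globin-rich cells, the log2 fold change was 2.13. It was 2.63 without cells of 5% globin or more, where replicate 2 still had 675 CPM, the highest of its group. With cells of more than 500 genes it was 1.71. Without Esr1cKO tamoxifen replicate 3 it was 6.29 and passed (adjusted p = 0.0371). Replicate 3 is 1 of the 2 libraries listed from 100 genes.

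None of the 39 pairs of globin and population passed in the Esr1cKO contrast of tamoxifen against oil in the main fit, nor with edgeR's robust prior or DESeq2, and 0% of the genes tested did in any population. At an unadjusted p under 0.05 there were 23 of the 39 pairs by edgeR, 21 with the robust prior and 23 by DESeq2, where 3.5%, 3.41% and 1.25% of all pairs of gene and population had such a p. The copies and the populations of a library are not independent, so the 23 pairs are not separate results. The call depended on the 2 libraries listed from 100 genes. In fits chosen after seeing the data, 7 of 39 pairs passed without them and 8 with a term for them, where 0.0155% and 0.0161% of all pairs of gene and population did (13 and 14 in all). These were all 4 globins in oligodendrocytes (*Hbb-bs* 3.16, SE 0.56, adjusted p = 0.0042, edgeR, without the 2 libraries) and 3 or all 4 in mural cells (*Hbb-bs* 6.30, SE 1.02, adjusted p = 7.7e-05). That mural p-value is not free of the filter, which *Hbb-bs* again passed through tamoxifen libraries. Esr1cKO tamoxifen replicate 2, with its globin-rich mural cells, stayed in both fits. edgeR's prior degrees of freedom, which set how far a gene's own spread counts, were 45.7 and 72.9 there, in place of 13.03. With all libraries and no filter on low counts, 22 of 40 pairs passed, where 0.0379% of all pairs did. The prior degrees of freedom were infinite in 7 of these 10 fits, where a gene's own spread between mice did not count.

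In the sum of all kept cells *Hbb-bs* stood at 1241, 541, 733 and 1314 CPM with oil and at 1957, 3750, 2614 and 1011 with tamoxifen, so that the groups overlapped, and differed by 1.26 (SE 0.49, unadjusted p = 0.0195). *Hbb-bt* differed by 1.52 (unadjusted p = 0.00628).

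Among the types, *Hbb-bs* was higher with tamoxifen by a log2 fold change of 2.97 in ependymal cells (SE 0.82, unadjusted p = 0.0016), 2.82 in oligodendrocytes (SE 0.87, 0.00416) and 2.25 in microglia (SE 0.81, 0.0118), all at adjusted p of 0.970 or more (edgeR). In oligodendrocytes the oil libraries were at 60.5, 78.5, 31.6 and 277 CPM and the tamoxifen libraries at 1077, 1815, 139 and 328. The ranges overlap through the oil value of 277. Endothelial cells had the smallest standard error among the types, with a difference of 0.74 (95% interval -0.16 to 1.64, unadjusted p = 0.122). Astrocytes differed by 0.45 (95% interval -1.93 to 2.84).

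Other measures were also high in some libraries of the Esr1cKO tamoxifen group, replicate 2 most of all. Its replicate 2 had the highest red cell count and low-gene level of all libraries, 12.3 red cell barcodes per 1000 and 3053 *Hbb-bs* CPM. The low-gene *Hbb-bs* level was 165, 711, 547 and 652 in Esr1cKO oil and 590, 3053, 823 and 1328 in Esr1cKO tamoxifen. Red cell barcodes per 1000 were 1.96, 2.27, 1.55 and 1.16 in Esr1cKO oil and 2.38, 12.3, 1.76 and 2.80 in Esr1cKO tamoxifen. In both measures the groups overlapped. The part of red cell number and free RNA in the contrast was not tested. Sums per library alone do not tell more globin-bearing cells from more globin RNA per cell. Globin-rich cells were 1.62% to 6.94% of endothelial cells over the Esr1cKO oil libraries and 3.75% to 7.52% with tamoxifen. In the remaining endothelial cells *Hbb-bs* was at 156 to 273 CPM and 227 to 638 CPM, respectively. Both pairs of ranges overlapped, and neither difference was tested. Over all populations, none of the pairs of list gene and population passed in the Esr1cKO contrast (94 for heme, 125 for red cell, 11 for other globin and 25 for other blood cell genes), and 7, 5, 0 and 14 of them, respectively, had an unadjusted p under 0.05 by edgeR. Of all pairs of gene and population 3.5% had such a p.

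In the list of other blood cells, neutrophil genes were higher in the same group without passing the test. In microglia 7 of 10 list genes had an unadjusted p under 0.05, where 4.49% of all genes tested had such a p. The low-count filter weighed the libraries of all 4 groups together and left 10 of the 18 list genes in microglia. Genes that are low elsewhere can pass it through the Esr1cKO tamoxifen libraries. The counts and medians given here, and the 14 of 25 pairs above, are therefore not free of the filter. The median log2 fold change of the 10 was 5.54, beside -0.0077 for all genes. In all kept cells 7 of 13 had such a p, where 3.25% of all genes did, with a median of 0.71. *S100a9*, a calcium-binding protein gene of neutrophils, differed by 5.90 in microglia (SE 1.35, unadjusted p = 0.000304, adjusted p = 0.734, edgeR). The neutrophil granule genes *Ngp* and *Ltf* differed by 6.83 and 5.54, whereas the immunoglobulin gene *Ighm* had -1.06. Another immunoglobulin gene, *Igkc*, had -3.87 in all kept cells, and the counts above include both lower genes. *Ccr2*, also on the list, had -0.13 in microglia. In all kept cells *S100a9* was at 0, 4.89, 0.582 and 1.30 CPM in Esr1cKO oil and at 54.2, 203, 55.5 and 0.532 in Esr1cKO tamoxifen, so that 3 of 4 tamoxifen libraries lay above the oil range and replicate 4 lay within it. In the wild-type libraries it was at 0.582, 20.6 and 2.64 with oil and 0.249 to 4.58 with tamoxifen. The 18 genes of that list summed to 101.8 to 202.4 CPM in Esr1cKO oil and 221.6 to 990 in Esr1cKO tamoxifen, with Esr1cKO tamoxifen replicate 2 highest and 0 of the 18 genes at 0 in it. Their part in the globin values was not tested.

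In the wild-type libraries the corresponding values in the sum of all kept cells were 412, 2164 and 573 CPM with oil and 1328, 1460, 2549, 2011 and 2341 with tamoxifen, a log2 fold change of 0.89 (SE 0.51, description). Oil replicate 2 lay within the tamoxifen range and the other 2 below it. By type the wild-type value of *Hbb-bs* ranged from -1.05 in microglia to 4.43 in mural cells.

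The genotype comparison set 8 Esr1cKO against 8 wild-type libraries over both treatments. Groups were weighted by their libraries, 3 oil and 5 tamoxifen in wild-type and 4 of each in Esr1cKO. Treatment was thus not balanced, and a part of the wild-type tamoxifen contrast enters the comparison. None of the 39 pairs passed, by edgeR, with its robust prior or by DESeq2, where 0.00365% of all pairs of gene and population did by edgeR, with either prior, and 0.00357% by DESeq2. At an unadjusted p under 0.05 there were 6 pairs by edgeR, 3 with the robust prior and 5 by DESeq2, where 3.58%, 3.5% and 1.26% of all pairs of gene and population had such a p. In all kept cells *Hbb-bs* differed by 0.018 (95% interval -0.64 to 0.68), and in endothelial cells by 0.11 (-0.53 to 0.74). The 4 globins in neurons accounted for 4 of the 6 pairs (2 with the robust prior), with log2 fold changes from -1.36 to -1.44 (*Hbb-bs* SE 0.54, unadjusted p = 0.0223, where 3.1% of the genes in neurons had a p under 0.05). The other 2 were *Hbb-bs* (-1.74, unadjusted p = 0.0022) and *Hba-a1* (-1.40) in fibroblasts. In fibroblasts of Esr1cKO oil *Hbb-bs* reached 96.7 CPM at most and *Hba-a1* 64.9. Both passed the low-count filter through libraries of the other groups, wild-type ones among them, so these 2 results are not free of the filter. Neurons had 34.2 to 542 *Hbb-bs* CPM in the Esr1cKO libraries and 44.1 to 914 in the wild-type libraries, ranges that overlap over most of their width.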

How the data were processed

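The authors deposited 1 table of UMI counts per library, with genes as rows and barcodes as columns and no normalization. Per the labels' processing notes, reads were aligned to mm10 with STAR 2.6 and cells were analysed with Seurat in R, and the rule for reads that match several genes is not given in the sources used here. UMI counts already count each molecule once, and levels are given here as CPM, UMIs per 1000000 UMIs of the population. The total per library, over all barcodes listed, was 2634250 to 8038160 UMIs, 48.9% to 76.8% of them in kept cells. No columns of other samples were present.

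Cells were kept at the limits of the study (200 and 4000 genes, 15% mitochondrial UMIs). They were clustered with Seurat 5.3.0 in R 4.3.3 with all globins and *Alas2* out of the variable genes, and named from markers. No doublet caller was run. Counts were summed per library and type, with at least 10 cells, and tested with edgeR 4.0.16 (quasi-likelihood, TMM scaling, low-count filter, Benjamini-Hochberg adjustment over all genes, threshold 0.05), with all 4 groups sharing the estimate of spread. DESeq2 1.42.0 was an alternative. The fits were tested on simulated data. Single mice are the replicates, so p-values are set against the spread between mice. edgeR draws a gene's own spread towards that of other genes, to an extent set by its prior degrees of freedom. These were infinite for mural cells against all other kept cells, so a gene's own spread did not count there. Differences against low-gene barcodes and between types used log2 CPM with 0.5 UMIs added to each count of a gene. They were tested by exact sign flips, and correlations used 100000 permutations.

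The 5 genes and the gene lists were chosen with earlier results of these data known. Named genes were the 5 members, from each list those past a test, at most 5 by size of the fold change, otherwise the 3 with most UMIs, the 10 most like *Hbb-bs*, and the 10 highest in red cell barcodes. Alternatives covered filters, scaling, thresholds on globin content, and libraries left out.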

Additional observations from a re-analysis of the deposited data

Results flagged for a closer look

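Of 42 groups of 4 or 5 libraries examined for a library far from the rest by Dixon's criterion, 10 had one, where chance gives about 1 in 20. Esr1cKO tamoxifen replicate 2 accounted for 4 of them. Its globin share was 6.15% of its UMIs where the next library of its group had 1.28%, and it had 12.3 red cell barcodes per 1000 where the next had 2.80. Its *Hbb-bs* level was 5251 CPM in astrocytes (next 244) and 10114 in mural cells (next 319).

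The other 6 concerned the *Hbb-bs* level of single types. Wild-type tamoxifen replicate 2 had 13359 CPM in endothelial cells (next 10128). Wild-type tamoxifen replicate 4 had 1677 in polydendrocytes (next 135) and 498 in ependymal cells (next 127). Esr1cKO oil replicate 3 had 155 in microglia (next 78.8) and 565 in polydendrocytes (next 69.5), and Esr1cKO oil replicate 2 had 84.6 in ependymal cells (next 44.2). What set these libraries apart was not tested.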

How the results depend on the processing

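Over settings other than left-out libraries, 396 values of single genes kept their direction and their side of the threshold, or moved by less than their spread, and 53 did not. Of the pairs of globin and type, 21 of 36 passed without cells of 5% globin or more, in place of 35. Without those cells *Hbb-bs* turned higher than in the rest in astrocytes (0.50), microglia (0.38) and mural cells (0.17), as did *Hba-a1* (0.081) and *Hbb-bt* (0.38) in mural cells. Without cells of 2% or more the values were 0.81 in astrocytes, 0.29 in oligodendrocytes, 0.58 in microglia, 0.071 in fibroblasts and 0.37 in mural cells, where *Hba-a1* had 0.25, *Hba-a2* 0.18 and *Hbb-bt* 0.55. Both settings remove most globin UMIs of the endothelial cells, which are part of the rest. The wild-type mural value of 4.43 moved to 0.95 and 0.73 in these settings and to 2.02 with cells of more than 500 genes, and endothelial *Hbb-bs* against low-gene barcodes, 3.52, turned to -1.39. In the Esr1cKO contrast 22 of 40 pairs passed with no low-count filter, 7 of 39 without wild-type oil replicate 3 and Esr1cKO tamoxifen replicate 3, and 8 of 39 with a term for these 2 libraries (the latter 2 settings chosen after seeing the data), in place of 0. edgeR's prior degrees of freedom, which set how far a gene's own spread counts, rose from 13.03 to 45.7 and 72.9 in mural cells without them and with the term, and were infinite in 7 of 10 fits with no filter. In mural cells *Hbb-bs* then gave 6.30 (adjusted p = 7.7e-05, with the limit of the filter given above) and 6.18 (3.9e-07). It gave 2.16 without wild-type oil replicate 2 and Esr1cKO tamoxifen replicate 2. In astrocytes the *Hbb-bs* value of 0.45 turned to -1.22 with cells of more than 500 genes, -2.56 without the latter 2 libraries and -0.81 with a term for fours of library numbers. The genotype comparison had 3 of 40 pairs with no filter (*Hba-a1* and *Hba-a2* in microglia, *Hbb-bs* in fibroblasts), and in all kept cells *Hbb-bs* turned to -0.28 without both replicates 3 named above. Shares over all genes are not given for these 3 of 40 pairs or the 21 of 36 above, so these counts cannot be set against them. Red cell barcodes numbered 538 at 20% globin, 179 at 80% and 1684 from 20 genes in 14 libraries, in place of 293, and *Hbb-bs* in barcodes of 20 to 99 genes was 1493 CPM in place of 685. Thinning moved the share of cells with a globin UMI to 18.2% in endothelial cells and 7.67% in neurons. The oligodendrocyte correlation fell to 0.565. The cause of the other changes was not tested.

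With each library left out, 0 to 3 pairs passed in the Esr1cKO contrast and 0 in the genotype comparison, and 9 to 12 of the 12 pairs of endothelial cells, mural cells and astrocytes with the rest. This was not run for the other 6 types. Shares over all genes are not given for the fits with a library left out. The Esr1cKO value of *Hbb-bs* ranged from 2.13 to 6.32 in mural cells and from -2.55 to 1.05 in astrocytes, negative only without Esr1cKO tamoxifen replicate 2. The genotype value ranged from -0.20 to 0.24 in all kept cells and from -2.88 to 0.13 in mural cells, and the wild-type values from 0.51 to 1.957 in all kept cells, 0.46 to 1.67 in endothelial cells and 3.09 to 5.03 in mural cells. No paired analysis was possible because the labels number the libraries across the series and give no replicate numbers within groups. The study worked through 4 mice a day on 4 days, and the labels do not tie libraries to days. A term for fours of library numbers, which may or may not be days, left 0 of 39 pairs in the Esr1cKO contrast and in the genotype comparison. Few globin UMIs in most types limit these values, with 1153 of *Hbb-bs* in 2355 mural cells, 73225 in endothelial cells and no *Alas2* in 5 types.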
